A study of Mus musculus with 6 samples.

Results

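Cells labelled as macrophages from mice without leukemia were compared between iron dextran and PBS in 2 RNA-seq libraries, WT/FE and WT, with 1 library per condition. Reads on 5 B cell markers (0.419% in WT, 0.388% in WT/FE) exceeded those on 15 macrophage markers (0.154% and 0.276%). The values below are therefore of mixed RNA, and a difference need not lie within macrophages. Every protein-coding gene whose FPKM was 1 or more in WT or in WT/FE was a member, with immunoglobulin segments kept apart. These were 10808 of the 21995 protein-coding genes among the 54532 genes in the files. FPKM, the unit of the files, is a read count divided by the length of the exons and by the reads of the library. All 10808 members were above 0 in both libraries, 134 reached an FPKM of 1 in WT alone and 212 in WT/FE alone. At the edge of the rule, C730034F03Rik was just inside with 1.0007 in WT and 0.791 in WT/FE, and Mapk8ip1 was just outside with 0.739 and 0.9998.

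Both libraries came from normal C57BL/6 mice, which the study's methods give as 6 to 8 weeks old. WT/FE mice were injected intraperitoneally with iron dextran (25 mg/mL, 0.2 mL each time) every other day, 6 times in all, and WT mice with PBS in the same volume. Iron dextran is a complex of iron with a sugar polymer that macrophages take up and break down. GEO's labels name spleen as the tissue, whereas the methods describe sorting from BM by low Gr-1, F4/80, intermediate CD115 and low to intermediate side scatter, and this difference was not settled. How many mice entered each library is not given in the sources used here. The series also holds the same pair from mice transplanted with MLL-AF9 leukemia (MA9 and MA9/FE macrophages) and a pair of leukemia cell libraries, and these are used only for values side by side.

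No value has a replicate check, since each condition is 1 library, so no p-value is given and a gene was called only by the size of its difference. The fold was taken as the log2 of (FPKM + 1) in WT/FE over WT after TMM scaling, a scale on which changes of low genes come out too small. Reads were recovered from the FPKM (19518342 in WT and 16799333 in WT/FE), and the 95% intervals of a ratio below are exact binomial intervals from these reads that cover counting error only, not the spread between mice.

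Macrophages are the main site where body iron is recycled. Red pulp macrophages of the spleen and their counterparts in BM engulf aged erythrocytes, heme oxygenase opens the heme ring, ferritin stores the released iron, and ferroportin, encoded by Slc40a1, exports it to plasma. The factor SPI-C drives this cell type, and heme and iron are known to promote it. Iron also acts on some mRNAs through the iron-responsive element (IRE), a hairpin bound by iron regulatory proteins when iron is scarce. An IRE near the start of an mRNA blocks its translation while bound, and the IREs at the end of the Tfrc mRNA protect it from decay.

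The hairpins of the genes that carry this control are shown because the values of these genes are the first question of an iron experiment. Each is printed 5′ to 3′ as DNA from the GENCODE M21 transcripts, with the loop in capitals. The search asked for the loop CAGTGN with a last base other than G, 5 base pairs of stem on either side (G with T allowed) and an unpaired C before the stem.
Fth1 IRE: ctgcttcaaCAGTGCttgaacgga
Ftl1 IRE: ttgcttcaaCAGTGTttgaacgga
Slc40a1 IRE: cttcagctaCAGTGTtagctaagt
Tfrc IRE 1: tatcggaagCAGTGCcttccataa
Tfrc IRE 2: tatcgggagCAGTGTcttccataa
Tfrc IRE 3: tatcggagaCAGTGAtctccatat
Tfrc IRE 4: tatcgggaaCAGTGTttcccataa
In GRCm38 the 5′ UTR elements lie at chr19:9982735-9982758 (Fth1, plus strand), chr7:45459781-45459804 (Ftl1, minus strand) and chr1:45925467-45925490 (Slc40a1, minus strand). The 4 elements found in the 3′ UTR of Tfrc lie on the plus strand at chr16:32631222-32631245, chr16:32631601-32631624, chr16:32631666-32631689 and chr16:32631713-32631736. The same letters and pairs were found in transcripts of 222 of 21877 protein-coding genes (1.01%), so a match alone is a description of the letters. Of the 134 members with a match, 5 were higher in WT/FE past 1.5-fold, against 1.35% of all members. None was lower past it, against 0.712% of all members, and the median log2 fold of the 134 was 0.01. The 5 genes, named after their values were seen, were Slc40a1, Alas2, Ftl1-ps1, Ptgs1 and Ptprm. By its name Ftl1-ps1 is a copy of Ftl1, so reads may be split between them and its value is uncertain.

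Among the IRE genes, the exporter differed most. Slc40a1 (chr1:45908068-45926523) was at 18.8 FPKM in WT and 40.8 in WT/FE, a ratio of 2.16 (95% interval 2.07 to 2.26) and a log2 fold of 1.07. Fth1, the ferritin heavy chain and one of the most abundant transcripts of the libraries, was at 928 and 812 (log2 fold -0.19), and Ftl1, the light chain, at 398 and 458 (0.20). Tfrc, the transferrin receptor, was at 20.3 and 18.0 (-0.16). Ferritin and transferrin receptor mRNA thus differed between these libraries by far less than ferroportin mRNA. The share of reads on macrophage markers also differed between the libraries, by a ratio of 1.79, and its part in this contrast was not tested. FPKM measures mRNA, so the translational side of the IRE was not measured here.

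Of the 10808 members, 25 were higher in WT/FE by at least 2-fold (0.231% of members) and 8 were lower (0.0740%). At 1.5-fold, 146 were higher (1.35%) and 77 lower (0.712%). These are the background shares against which each list of genes below is read. The median log2 fold over all members was -0.02, the quartiles were -0.12 and 0.09, and 46.1% were above 0. Higher genes made up 75.8% of the 33 calls, and 87.5% of 40 once the trend of the fold on exon length was removed. With a pseudocount of 0.1 in place of 1, 83 were higher and 34 lower, including all of the 25 and 8.

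**Figure D1:**
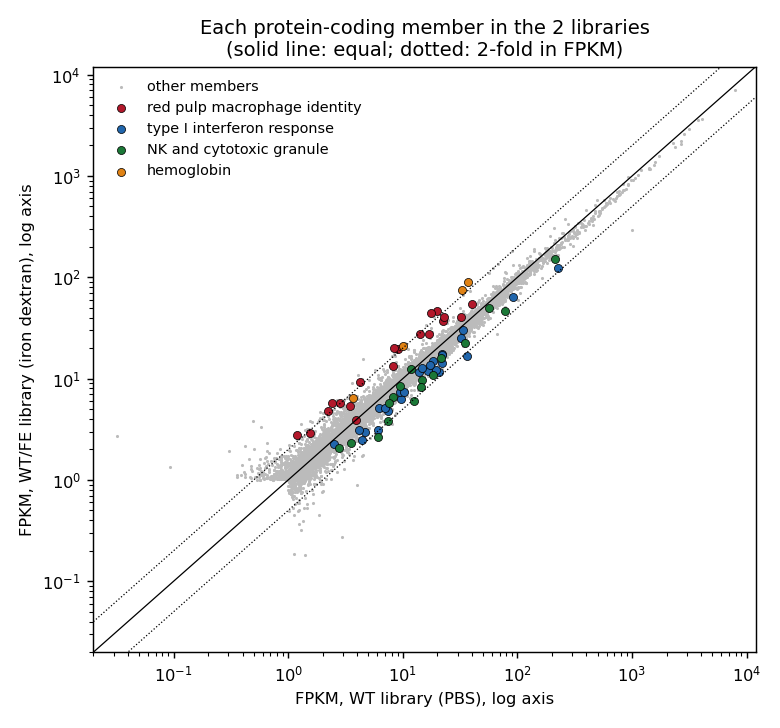
FPKM of each of the 10808 members in the WT library (x axis) against the WT/FE library (y axis), both on log axes, 1 point per gene. Most genes follow the line of equal levels, red pulp macrophage (red) and hemoglobin genes (orange) lie above it apart from Epor, which is on it, and type I interferon (blue) and all but 1 of the NK genes (green) lie below.

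The genes that mark iron-recycling macrophages were higher with iron as a group. Of 19 measured genes of a red pulp macrophage list, 15 were higher in WT/FE past 1.5-fold, against 1.35% of all members, and none was lower past it. Their median log2 fold was 0.79, against -0.02 over all members. The 4 past 2-fold were Cd5l, Vcam1, Mertk and Mrc1. The list was chosen with results of these libraries known, so its direction is not independent evidence.

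Cd5l (chr3:87357881-87371073), which encodes a secreted scavenger protein of tissue macrophages, was at 17.8 FPKM in WT and 44.1 in WT/FE (ratio 2.48, 95% interval 2.27 to 2.72). Vcam1 (chr3:116109949-116129688), an adhesion molecule that defines this macrophage type, was at 19.9 and 46.0 (ratio 2.32, 2.22 to 2.41). Mertk (chr2:128698956-128802894), a receptor for apoptotic cells, was at 8.38 and 20.04 (ratio 2.39, 2.19 to 2.62). For these genes the counting intervals lie wholly above 2. Mrc1, the mannose receptor CD206, was at 9.13 and 19.4 (ratio 2.13, 1.98 to 2.29), and its log2 fold of 1.01 became 0.998, just under the threshold, when the length trend was removed.

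Spic, the gene of the factor that specifies red pulp macrophages, was at 17.0 FPKM in WT and 27.6 in WT/FE (log2 fold 0.67). Cd163, the receptor for hemoglobin bound to haptoglobin, was at 4.22 and 9.18 (0.96), and Pparg, a nuclear receptor of lipid-handling macrophages, at 2.43 and 5.68 (0.96). Both were thus close below the 2-fold threshold. Itgad, an integrin subunit of splenic macrophages, was at 14.2 and 27.5 (0.91), and Axl, a receptor of the same family as Mertk, at 23.0 and 41.0 (0.81). Timd4, a receptor for phosphatidylserine on dying cells, was at 2.24 and 4.79 (0.84). Nr1h3, the gene of the sterol-sensing receptor LXR alpha, was at 8.21 and 13.4 (0.65), and Hpgd, which degrades prostaglandins, at 22.4 and 37.2 (0.71). Siglec1, the sialic acid receptor CD169, was at 1.55 and 2.88 (0.61), Clec1b at 1.19 and 2.76 (0.78) and Paqr9 at 2.85 and 5.68 (0.79). The 4 genes of the list that did not pass 1.5-fold were Kcnj10 (0.53), Adgre1 (0.43), Treml4 (0.31) and Epor (0.00). Adgre1 encodes F4/80, on which the cells were sorted, and was at 40.1 and 54.5. Vsig4 did not reach an FPKM of 1 in either library.

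**Figure D2:**
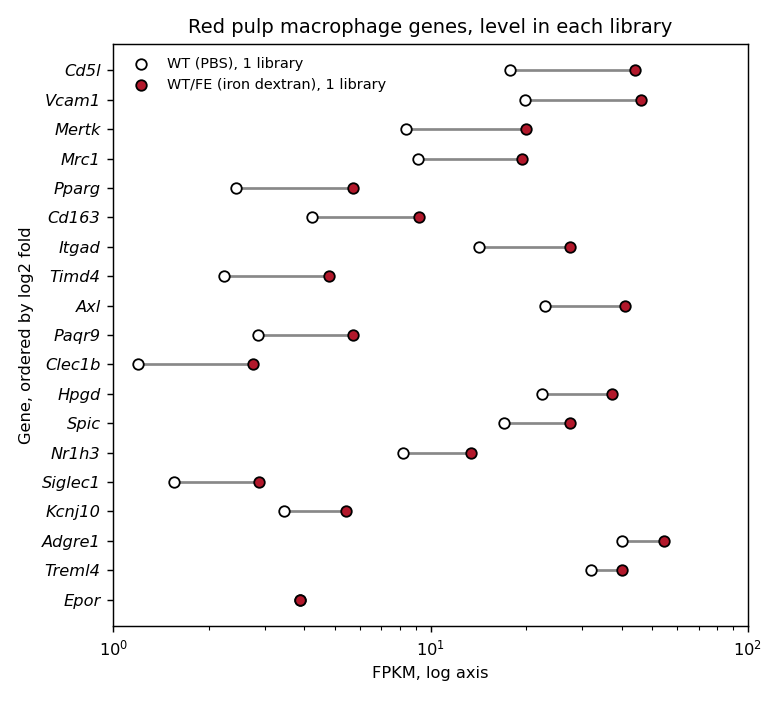
FPKM (log axis) of the 19 measured red pulp macrophage genes in the WT library (open points) and the WT/FE library (filled points), ordered by log2 fold, 1 library each. The filled point lies to the right for 18 genes, and the points of Epor coincide at 3.89.

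The general macrophage genes were higher for some members and level for others. Of 19 genes of a macrophage lineage list, 6 were higher past 1.5-fold and none lower, with a median log2 fold of 0.31. Csf1r, the receptor CD115 that was also used in the sort, was at 56.6 FPKM in WT and 111 in WT/FE (log2 fold 0.96). Cebpb, a transcription factor of myeloid cells, was at 24.6 and 38.3 (0.62). Spi1, the gene of PU.1, was at 110 and 106 (-0.05), Cd68 at 80.8 and 84.1 (0.06) and Itgam at 6.47 and 5.59 (-0.18). These 3 lay near or below the median of all members, while Mertk, Cd14, Csf1r and Cebpb were among those past 1.5-fold, and Lyz2, lysozyme, was at 258 and 375 (0.54).

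All genes of the C1q complex, which starts the classical complement pathway and is made by tissue macrophages, were higher. C1qa was at 67.7 FPKM in WT and 137 in WT/FE, C1qb at 61.4 and 124, and C1qc at 38.8 and 73.6. Their log2 folds were 1.0007 for C1qa, 0.999 for C1qb and 0.907 for C1qc, so C1qa alone reached the threshold of 1, by a margin smaller than its counting error. Complement C3 was at 3.06 and 5.25, and Cfp, the gene of properdin, at 135 and 145. In the complement list 4 of 9 members were higher past 1.5-fold and none lower, with a median of 0.45. C6, a component of the terminal complement complex, was outside this list and was at 3.59 and 9.04 (ratio 2.52, 2.16 to 2.94).

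Receptors for dead cells and scavenged ligands were higher for some members and level for others too. Of 16 measured genes, 5 were higher past 1.5-fold (Mertk, Lrp1, Timd4, Axl and Stab2) and none was lower, with a median of 0.32. Mertk, Axl and Timd4 are also in the red pulp list, so these counts are not separate evidence. Lrp1, which takes up heme bound to hemopexin, was at 8.39 and 17.4 FPKM (0.97). Cd36 was at 22.6 and 21.4 (-0.08) and Cd300lf at 31.1 and 32.4 (0.06). Among 13 Fc receptor genes, 2 were higher past 1.5-fold, Fcgr3 (0.76) and Fcgr4 (0.69), with a median of 0.05. Among 17 Toll-like receptor genes, Tlr8 was at 1.30 and 3.60 (1.0008) and the co-receptor Cd14 at 5.67 and 12.2 (0.98), while the median was 0.15.

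Past the exporter, most genes of iron handling did not pass 1.5-fold. Of 15 measured genes of iron export, storage and heme breakdown, 2 were higher past it, against 1.35% of all members. They were Slc40a1 and Slc11a1, and the median of the list was 0.14. Slc11a1, also called NRAMP1, pumps iron out of the phagosome and was at 17.6 FPKM in WT and 31.7 in WT/FE (0.82). Hmox1, which encodes the inducible heme oxygenase, was at 104 and 133 (0.35). Slc48a1, the heme transporter of the phagolysosome, was at 20.8 and 27.7 (0.40), and Flvcr1, a heme exporter, at 15.6 and 11.3 (-0.42). In the list of iron uptake and sensing, 2 of 15 were higher past 1.5-fold, Cd163 and Lrp1, against the same 1.35%, and the median was 0.01. The iron regulatory proteins were nearly level, with Aco1 at 7.601 and 8.42 and Ireb2 at 11.7 and 11.8. Of 13 measured genes of hepcidin and BMP signalling none passed 1.5-fold, and the median was 0.07.

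Genes of the oxidative response to iron were level as a list. Of 32 measured NRF2 targets and ferroptosis genes, 2 were higher past 1.5-fold, none was lower, and the median was -0.01. The 2 were Chac1, a glutathione-degrading enzyme (0.563 and 1.60 FPKM), and Gstm1, a glutathione transferase (3.65 and 6.34). With at least 50 reads required, 1 of 31 genes was higher past 1.5-fold. Gpx4, the enzyme that protects membranes from lipid peroxides, was at 52.2 and 44.2 (-0.23), and Gclm, a classical NRF2 target, at 3.60 and 3.53 (-0.02). Among 20 heat shock and chaperone genes all were below 0, with a median of -0.27 and none past 1.5-fold. With the length trend removed, 19 of the 20 were below 0 and the median was -0.21. None of the 39 lysosomal genes passed 1.5-fold, although 30 were above 0 with a median of 0.07, and Ctsb was at 92.3 and 131 (0.50). In the list of lipid efflux and LXR targets, 3 of 19 were higher past 1.5-fold, Nr1h3, Abca1 and Fabp4, and Apoe was at 208 and 308 (0.56).

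Type I interferon genes were lower with iron. All 26 measured members of the list were below 0, 7 were lower past 1.5-fold against 0.712% of all members, none was higher, and the median was -0.40. These genes are switched on by the factor complex ISGF3, which binds an interferon response element in their promoters. Isg15 (chr4:156199424-156200818), a small protein attached to others during the antiviral response, was the one past 2-fold and was at 36.6 FPKM in WT and 16.6 in WT/FE. Its WT level was 2.203 times the WT/FE level (95% interval 1.88 to 2.595), and with the length trend removed its log2 fold of -1.09 became -0.94. Ifi27l2a was at 228 and 123 (-0.88), Ifit1 at 6.11 and 3.12 (-0.79) and Oas2, which makes a messenger that activates RNA decay, at 20.5 and 11.5 (-0.78). Oas3 was at 4.44 and 2.48 (-0.64), Rtp4 at 19.5 and 12.3 (-0.62) and Ifit3 at 22.1 and 14.3 (-0.59). Rsad2, the antiviral enzyme viperin, was at 4.16 and 3.09 (-0.34), Mx1 at 22.0 and 17.6 (-0.31), and Oas1g, at -0.11, was the member nearest to 0. Transcription factors of the pathway differed less, with Irf7 at 32.5 and 24.95 (-0.37) and Stat2 at 33.7 and 30.5 (-0.14). Interferon-inducible GTPases, which respond more to interferon gamma, had a median of -0.06 over 15 members with none past 1.5-fold.

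The promoters of 3 of these genes are printed because their levels differed in the same direction and the element can be seen in them. Each line is the 160 bases before the RefSeq start (GRCm38.p6), 5′ to 3′ on the strand of the gene, with each match to GAAANNGAA on either strand in capitals.
Isg15 promoter: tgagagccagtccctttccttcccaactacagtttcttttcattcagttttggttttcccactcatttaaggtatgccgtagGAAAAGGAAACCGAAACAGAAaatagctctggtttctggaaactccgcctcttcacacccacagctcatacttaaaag
Ifit1 promoter: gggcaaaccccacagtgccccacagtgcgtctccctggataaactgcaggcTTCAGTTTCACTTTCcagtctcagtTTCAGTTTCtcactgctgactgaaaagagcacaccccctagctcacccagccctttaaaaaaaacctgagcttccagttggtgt
Ifit3 promoter: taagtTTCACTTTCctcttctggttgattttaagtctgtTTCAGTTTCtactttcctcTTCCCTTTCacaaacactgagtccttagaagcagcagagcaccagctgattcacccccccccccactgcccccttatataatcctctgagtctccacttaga
They lie at chr4:156200819-156200978 (minus strand), chr19:34640729-34640888 (plus) and chr19:34583369-34583528 (plus). Each holds 3 matches, lying 78 to 66 bases before the start in Isg15, 109 to 84 in Ifit1 and 155 to 102 in Ifit3. They overlap one another in Isg15, and the matches farthest from the start overlap in Ifit1. Those of Ifit1 and Ifit3 are on the opposite strand. Of the 26 interferon genes 19 had an entry in the promoter table, and 12 of these held the element (63.2%), against 2638 of all 27025 genes with an entry (9.76%) and 9.11% of members, over the full window from 250 bases before to 50 after the start. Among the genes lower past 1.5-fold it was in 12 of 52 (23.1%), and among those higher in 12 of 101 (11.9%). Ifit1, Ifit3, Isg15 and Oas3 account for 4 of the former 12. A match is a description of the letters and not a measured binding site. The antioxidant core TGACNNNGC was in 18.8% of promoters of genes higher past 1.5-fold and 13.5% of those lower, against 14.0% of all promoters and 17.0% of the 8637 members with an entry. The GATA site AGATAA was in 13.9% of promoters of genes higher past 1.5-fold and 13.5% of those lower, against 12.7% of all and 7.88% of members. In the red pulp list 2 of 14 promoters held the antioxidant core, Epor and Pparg.

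Genes of NK cells and cytotoxic granules were lower as well. Of 17 measured genes, 7 were lower past 1.5-fold, against 0.712% of all members, and none was higher. The median was -0.47, with Tbx21 (0.08) the one member above 0. Klre1, an NK receptor, was at 6.06 FPKM in WT and 2.64 in WT/FE, and Xcl1, a chemokine of NK and CD8+ T cells, at 12.4 and 6.03. Gzma, a granzyme, was at 77.9 and 46.3 (-0.74), Ncr1, the NK receptor NKp46, at 18.4 and 10.98 (-0.70), and Ccl5 at 211 and 152 (-0.47). T cell genes lay below 0 for all 18 measured members, with a median of -0.31 and 2 past 1.5-fold, Thy1 (5.22 and 2.58) and Cd8b1 (2.38 and 1.24). Reads on 3 NK markers (Ncr1, Klrb1c and Nkg7) made up 0.00849% of the WT library (exact 95% interval 0.00809% to 0.00891%) and 0.00565% of the WT/FE library (0.00530% to 0.00603%). These markers are also in the NK list, so their share is not separate evidence.

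**Figure D3:**
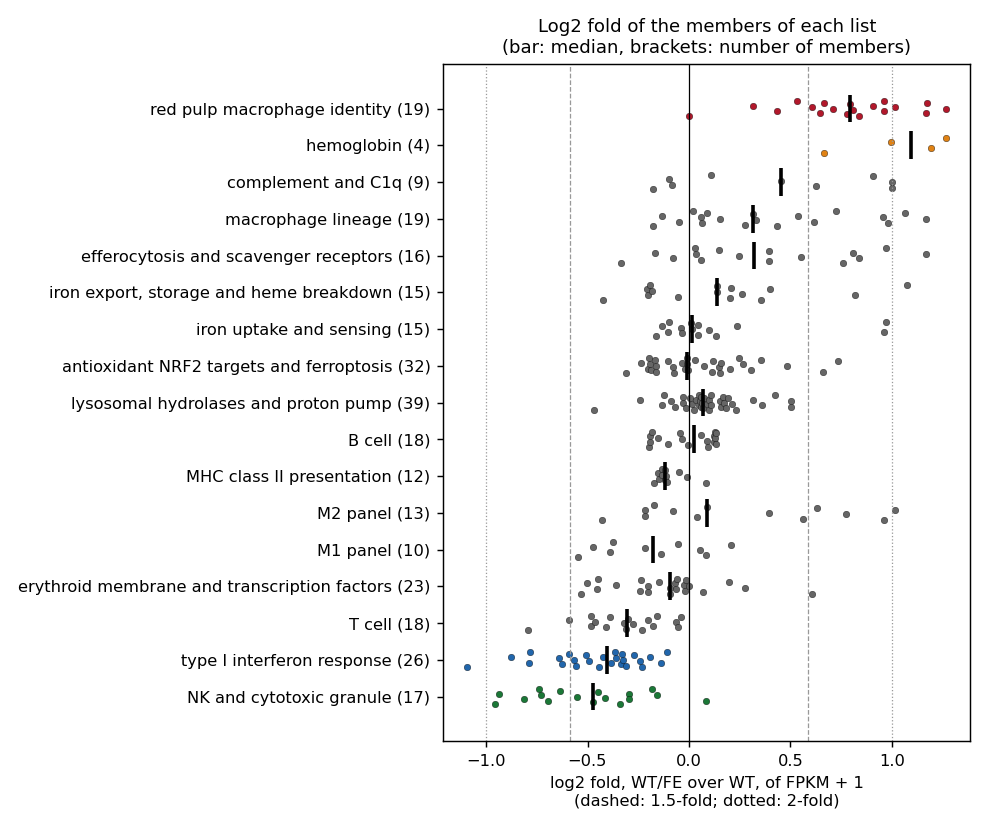
Log2 fold of WT/FE over WT for the measured members of 17 lists, 1 point per gene, with the median as a bar and the number of members in brackets. The red pulp and hemoglobin lists lie to the right of the other lists (medians 0.79 and 1.09), and the interferon and NK lists to the left (-0.40 and -0.47).

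The libraries held RNA of other cell types, and some of it moved with the comparison. The most abundant genes were those of antigen presentation, which B cells, dendritic cells and macrophages all make. Cd74 and the MHC class II genes H2-Eb1 and H2-Ab1 led both libraries, with Cd74 at 7928 FPKM in WT and 7042 in WT/FE. The other genes among the highest 10 of either library were H2-Aa of MHC class II and Eef1a1, Rplp1, Tmsb4x, B2m, Rps3a1, Rps15 and Actb, of ribosomes, translation, the cytoskeleton and MHC class I. Cd79a, a part of the B cell receptor, was at 745 and 693, against 40.1 and 54.5 for the macrophage marker Adgre1. None of 15 macrophage markers was at 0 in either library, but B cell transcripts were the more abundant in both, against the label of sorted macrophages.

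Reads on the 15 macrophage markers made up 0.154% of the WT library (exact 95% interval 0.152% to 0.156%) and 0.276% of the WT/FE library (0.273% to 0.278%), a ratio of 1.79. The markers ranged from 1.55 to 258 FPKM in WT and from 2.88 to 375 in WT/FE. This share moved together with Slc40a1 and with the red pulp, C1q and scavenger receptor genes, some of which are among the markers. Its part in those results was not tested. In a bulk sample, fewer cells of a type and less RNA per cell cannot be told apart. Reads on 5 B cell markers made up 0.419% and 0.388%, on 4 plasma cell markers 0.224% and 0.218%, on 5 T cell markers 0.0229% and 0.0193%, and on 4 dendritic cell markers 0.0467% and 0.0443%. Reads on 7 neutrophil markers were 176 and 127 in all, with Ltf at 0 in WT and Camp at 0 in WT/FE.

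The lists of other cell types differed among themselves. None of 18 B cell genes passed 1.5-fold (median 0.03, range -0.20 to 0.13), and none of 17 plasma cell genes (median 0.05). None of 12 genes of MHC class II presentation passed it either, and 11 were below 0 with a median of -0.12. With the length trend removed, 9 of the 12 were below 0 and the median was -0.07. None of 18 dendritic cell genes passed 1.5-fold, with a median of -0.11. The monocyte list had a median of 0.29 over 14 members with 2 past 1.5-fold, Ace and Chil3. Ace, angiotensin-converting enzyme, is carried by patrolling monocytes and some macrophages and was at 18.5 FPKM in WT and 46.0 in WT/FE (ratio 2.49, 95% interval 2.36 to 2.63). Of 9 measured neutrophil genes, Wfdc21 was lower at 2.95 and 0.274 on 25 and 2 reads, and Chil3 and Csf3r were higher past 1.5-fold. The megakaryocyte list had a median of -0.02 over 9 members with Clec1b past 1.5-fold, the basophil list -0.13 over 8 with Mcpt8 lower past it, and the list of stroma and endothelium 0.37 over 2, Stab2 (0.76) and Pecam1 (-0.01).

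All 4 measured hemoglobin genes were higher with iron past 1.5-fold, and most other erythroid genes were not. Hbb-bs was at 37.1 FPKM in WT and 90.8 in WT/FE (log2 fold 1.27), Hba-a1 at 32.6 and 75.6 (1.19), Hbb-bt at 9.98 and 20.9 (0.997) and Hba-a2 at 3.69 and 6.43 (0.66). The copies of each chain are nearly identical, so reads may be split between them, and the sum of the alpha genes was 36.2 and 82.0 and that of the beta genes 47.1 and 112. Alas2, the erythroid enzyme of heme synthesis, was at 1.41 and 3.10 (0.77), the one of 9 heme synthesis genes past 1.5-fold. Of 23 measured erythroid membrane and transcription factor genes only Slc4a1 (0.61) was higher past 1.5-fold, 18 were below 0 and the median was -0.10. Gata1 was at 2.21 and 1.22 (-0.53), Klf1 at 5.06 and 3.27 (-0.50) and Car1 at 44.0 and 32.0 (-0.45). Reads on 8 erythroid markers, the main hemoglobins included, made up 0.00878% of the WT library and 0.0184% of the WT/FE library, with none at 0 and a range of 0.970 to 37.1 FPKM in WT and 1.39 to 90.8 in WT/FE. The part of erythroid cells or their fragments in the hemoglobin values was not tested.

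Panels of activation did not move as wholes. Of 10 measured genes of an M1 panel, a name for inflammatory activation, none passed 1.5-fold, and the median was -0.18, with Tnf at 24.3 and 16.3 FPKM (-0.55) and Il1b at 46.1 and 35.3 (-0.38). Of 13 genes of an M2 panel, a name for the repair type of activation, 4 were higher past 1.5-fold and none lower, with a median of 0.09. The 4 were Mrc1 and Cd163, also in the red pulp list, and Ccl17 and Chil3, which rest on 12 and 35 reads in the higher library. Among 12 measured chemokine genes Ccl17 was higher and Xcl1 lower past 1.5-fold, with a median of -0.27. Among 15 checkpoint and costimulation genes none passed it (median -0.14), with Cd274, the gene of PD-L1, at 49.0 and 44.5.

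For the remaining lists the medians were 0.06 for 22 immediate early genes, with Ier3 lower past 1.5-fold (11.7 and 6.95 FPKM), 0.00 for 21 glycolysis genes and -0.06 for 35 cell cycle genes, with none of the last 2 lists past 1.5-fold. The nuclear genes of the respiratory chain had a median of -0.18 over 37 members, 33 of them below 0, with none past 1.5-fold. Once the length trend was removed the median was -0.10, with 32 of 37 below 0. Of 254 immunoglobulin segments with an FPKM of at least 1, which were kept apart, 64 were higher and 30 lower by 2-fold. Their median log2 fold was 0.28. Among the 10808 members 0.231% were higher and 0.0740% lower by 2-fold. No minimum of reads was set for the segments, and an FPKM of 1 rests on few reads where exons are short.

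Other genes past 2-fold belonged to none of these groups. Slpi, an inhibitor of neutrophil proteases, was at 36.8 FPKM in WT and 84.4 in WT/FE (ratio 2.29, 95% interval 2.11 to 2.496), and Fpr1, a receptor for bacterial peptides, at 4.10 and 10.8 (ratio 2.63, 2.08 to 3.34). Ddit4, a stress-induced inhibitor of mTORC1, was at 89.3 and 181 (ratio 2.03, 1.94 to 2.12), and Abcc3, an export pump, at 4.39 and 9.84 (ratio 2.24, 2.01 to 2.51). Tanc2 was at 0.3055 and 1.91 on 99 and 533 reads, and Capn11, a calpain, at 0.416 and 2.15 on 22 and 98 reads. These were among the largest ratios but low levels in both libraries. Of the 25 genes higher by 2-fold, 4 have names of clones or predicted genes (C130026I21Rik, Gm11084, Gm14434 and Gm47283), and 2 rest on under 50 reads (Gm11084 and mt-Atp8). Of the 8 lower, 2 have such names (Gm10563 and Gm5741), and 3 rest on under 50 reads (these and Wfdc21). These genes were named after their values were seen.

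Several of the largest differences belong to genes with near-identical copies, where reads can move between copies in counting. Rps27rt was at 998 FPKM in WT and 291 in WT/FE (log2 fold -1.77), while Rps27, its near-identical relative, was at 494 and 573. The FPKM of both summed to 1492 and 864, a log2 fold of -0.79. These copies differ in exon length, so the sum depends on how reads were split. Reads on both were 17348 of 19518342 in WT and 11864 of 16799333 in WT/FE. Eif3j2 was at 0.582 and 3.33 (1.45), while Eif3j1 was at 7.88 and 5.46. The FPKM of both summed to 8.46 and 8.79, a log2 fold of 0.05, with the same limit. Reads on both Eif3j genes were 924 in WT and 668 in WT/FE. Tmem254c was at 0.0324 and 2.71 (1.85) on 1 and 72 reads, and its copies Tmem254a and Tmem254b were listed at 0 in both libraries. Rpl21 (66.9 and 27.7) and Nutf2-ps1 (4.39 and 1.72) belong to families with many processed copies. The values of these genes are uncertain for that reason. Snrpe, of the spliceosome, was at 36.6 and 16.3, and Tmed6, of the secretory pathway, at 3.9999 and 0.888 on 68 and 13 reads. The other genes among the 15 largest falls were Ndufa12, Ly6k, Ffar4, and the NK receptor genes Klra4 and Klra7, between -0.98 and -0.80.

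Side by side with the other pairs of the series, most red pulp genes were also higher with iron in the MA9 macrophage pair, and the interferon genes were not lower as a list in that pair. No library is shared between the pairs. In the MA9 macrophage pair 4.74% of the same 10808 genes were higher past 1.5-fold and 3.99% lower, and in the leukemia cells 0.592% and 0.768%. Of the 19 red pulp genes, 14 were higher past 1.5-fold in MA9/FE over MA9 macrophages with a median of 0.81, and none was in the leukemia cells, with a median of -0.08. Slc40a1 was at 17.6 FPKM with PBS and 49.4 with iron in the MA9 pair, and at 3.95 and 3.93 in the leukemia cells. Cd5l was at 32.5 and 81.6 in the MA9 pair and Vcam1 at 18.8 and 44.5. The share of macrophage markers in the MA9 pair was 0.166% and 0.312%, a ratio of 1.88.

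Of the 26 interferon genes, 15 were above 0 in the MA9 pair with a median of 0.03, and none passed 1.5-fold in either direction. In the leukemia cells all 26 were below 0, 14 were lower past 1.5-fold, and the median was -0.60. Isg15 was at 34.4 and 37.8 in the MA9 pair and at 9.76 and 3.04 in the leukemia cells. NK genes had a median of 0.11 in the MA9 pair, with none past 1.5-fold. Hemoglobin genes were higher in the MA9 pair, where Hba-a1 was at 103 and 210, and lower in the leukemia cells, where it was at 169 and 62.1. Ferritin differed as well, with Fth1 at a log2 fold of 0.61 and Ftl1 at 1.003 in the MA9 pair, against -0.19 and 0.20 in the WT pair. None of these differences between pairs was tested, since each rests on 1 library per condition. The values of the pairs are also not corrected for exon length, on which the fold depended in opposite directions in the macrophage pairs.

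**Figure D4:**
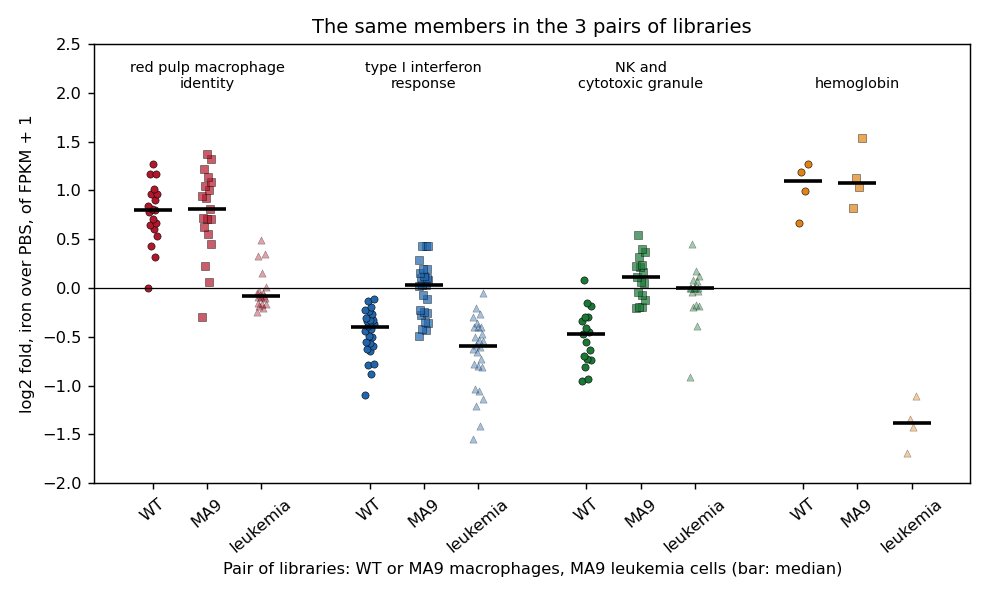
Log2 fold of iron over PBS for the members of 4 lists in the WT macrophage pair (circles), the MA9 macrophage pair (squares) and the leukemia cell pair (triangles), 1 point per gene, with the median as a bar. Red pulp medians are 0.79, 0.81 and -0.08, interferon medians -0.40, 0.03 and -0.60, and hemoglobin medians 1.09, 1.08 and -1.39.

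Of the 25 genes higher by 2-fold in the WT pair, 14 were higher past 1.5-fold in the MA9 pair and 3 were lower past it. The 10 higher past 2-fold in both pairs included Vcam1, Slc40a1, Hba-a1, C1qa, Hbb-bs, Cd5l, Mrc1, C6 and Fpr1. The 3 lower past 1.5-fold were Tmem254c, Gm11084 and mt-Atp8. Ace, higher in WT/FE, was at 32.99 FPKM in MA9 and 22.2 in MA9/FE (log2 fold -0.53). Of the 8 genes lower by 2-fold, none was lower past 1.5-fold in the MA9 pair, and Rps27rt (0.72) was higher past it. There 6 of the 8 were above 0, against 53.8% of all members. Apart from Rpl21, these 8 genes are among the 1081 members with the shortest exons. The median log2 fold of those members was -0.15 in the WT pair and 0.33 in the MA9 pair. The part of exon length in this contrast was not tested. In the leukemia cells 2 of the 25 were higher past 1.5-fold, among them Ace (0.83), and 3 were lower past it, Hbb-bs, Hba-a1 and Gm47283. Of the 8, Isg15, Rps27rt and Gm10563 were lower past 1.5-fold there.

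The fold also varied with exon length, and in opposite directions in the macrophage pairs. Across the 10808 members, Spearman's rho of the log2 fold with exon length was 0.28 in the WT pair, -0.47 in the MA9 pair and 0.06 in the leukemia cells. These are correlations across genes, which are not replicates. In the WT pair the median log2 fold was -0.15 in the decile of shortest genes, with a median exon length of 1266 bases, and 0.06 in the decile of longest genes, with 12031 bases. With this trend removed, the red pulp median was 0.80 with 14 of 19 genes past 1.5-fold, the interferon median -0.37 with 5 of 26 lower, and the NK median -0.45 with 5 of 17 lower.

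**Figure D5:**
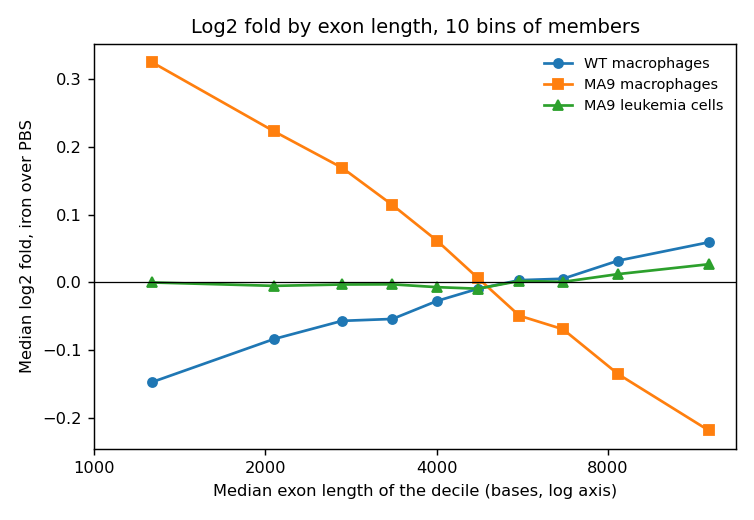
Median log2 fold of iron over PBS in 10 bins of members by exon length (log axis, bases) for the WT macrophage, MA9 macrophage and leukemia cell pairs, 1 point per bin. The WT line goes from -0.15 to 0.06, the MA9 line from 0.33 to -0.22, and the leukemia line stays between -0.01 and 0.03.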

How the data were processed

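RNA of sorted cells was sequenced on an Illumina NovaSeq. The submitters' processing notes list Bowtie2 2.2.5, RSEM and mm10; the annotation is not given in the sources used here. The authors deposited FPKM per Ensembl gene, 1 table for each of 6 libraries. Exon lengths and symbols were taken from GENCODE M21 (GRCm38, the build of mm10), which gave a length for 54495 of 54532 genes. FPKM times exon length came out as whole multiples of 1 read within 0.05 for 96.8% to 97.0% of values above 0, and reads and depth (16085329 to 19518342 per library) were recovered from these. The other reads are approximate.

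The pair was scaled by TMM (log2 factor 0.00, trimming 30% of ratios and 5% of levels). Genes were called at a fold of 2 or 1.5 on log2(FPKM + 1), with no test. Intervals are exact binomial at 95%. The members, the 38 gene lists and the motifs were chosen with earlier results of these data known. Of the lists, the one of sex genes had no member. Genes named are the 15 largest differences each way among members with at least 50 reads and a full symbol, the 10 most abundant genes of each library, and in each list those past the fold, defining members and the 3 most abundant. Some genes that this rule names are not reported here. Genes of near-identical families were summed after their values were seen. Alternatives were other scalings, pseudocount, filters, a test of counting noise, length correction and fold. The steps were tested on simulated data. Python 3.11.15 with numpy 2.4.6, pandas 2.3.3, scipy 1.17.1 and matplotlib 3.10.9 was used.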

Additional observations from a re-analysis of the deposited data

Results flagged for a closer look

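Some results went one way in the WT pair and the opposite way in another pair, and none of these differences was tested, since each condition is 1 library. Tmem254c, which has near-identical copies, had a log2 fold of 1.85 in the WT macrophage pair and -1.11 in the MA9 macrophage pair, where its level was 1.60 FPKM in MA9 and 0.197 in MA9/FE. It was 1 of 11 genes past 2-fold in both macrophage pairs, and the other 10 had the same direction in both. The rank correlation of the log2 fold with exon length was 0.28 in the WT pair and -0.47 in the MA9 pair. The 4 hemoglobin genes were all higher with iron in the WT pair (median 1.09) and all lower in the leukemia cells (median -1.39).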

How the results depend on the processing

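No paired analysis was possible because each condition has 1 library, and for the same reason no library could be left out. Without further scaling, with the median of ratios, with TMM without hemoglobin and immunoglobulin genes, and with no filter on level, 33 genes passed 2-fold, 25 higher and 8 lower, as before. With a pseudocount of 0.1, 117 passed (83 higher, 34 lower). With an FPKM of at least 5, 21 passed (4 lower), and with at least 50 reads, 5 were lower. With the length trend removed 5 were lower and 35 higher, of which 23 were among the 25. The exact binomial test of counting noise on recovered reads (adjusted p of at most 0.01) left 29, with 23 higher. At a fold of 1.5, 223 passed (146 higher, 77 lower). Of 333 list medians under 9 alternatives, 19 moved by at least 0.1, and signs changed for the M2, neutrophil, stroma, NRF2 and iron uptake lists, all with a median between -0.06 and 0.37 to start with. All 26 interferon genes stayed below 0 and all 19 red pulp genes above 0 with the length trend removed. The same held under the other alternatives with the same members, but these could hardly change a sign. Of 5336 values of single genes, 82 were counted as moved, 9 lost the call and none reversed. The length correction alone gave 79 of the 82 and 5 of the 9. The depth gives narrow counting intervals, and the spread between mice is not known.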
